A study of Mus musculus with 18 samples.

Results

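Titin (Ttn) was examined across 18 lists of methylated-DNA peaks from mouse heart. It is 1 of 21887 protein-coding genes of the gene table and 1 of 16532 with a peak in at least 1 list. The gene was selected on measured values: the share of it under peaks was highest in the libraries taken 72 h after infarction. The 72 h values are therefore given as a description, with no test, and tests were run on the other 15 libraries.

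The study examined hearts after myocardial infarction (MI), in which muscle dies once its blood supply stops, in 12-week-old male C57BL/6JR mice. Per the labels, the MI mice had a ligation of the left anterior descending coronary artery. In the sham mice the suture was passed and not tied. Sampling of the MI mice was at 10 min or 1 h for the earliest groups, then at 6 h or 24 h, and at 72 h for the last. No time is given for sham, and each of the 6 groups held 3 mice. The assay was methylated DNA immunoprecipitation sequencing (MeDIP-seq), in which an antibody pulls down sheared DNA that carries methylated cytosine, and a peak marks where such fragments pile up. The labels call the tissue myocardial and the cell type cardiomyocytes, and describe no isolation of cells. Peak lists hold no expression values, so the cell type could not be checked against its markers. In tissue with several cell types, a change in which cells are present and a change of methylation within cells cannot be told apart.

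Titin is the giant protein of the sarcomere, the contractile unit of striated muscle. A single molecule runs from the Z-disc to the M-band, acts as a spring that sets the passive stiffness of the heart wall, and serves as a scaffold for structural and signalling proteins. The gene encodes the Z-disc end of the protein first and the M-band end last. Its many spring exons are spliced under the control of Rbm20, which sets the balance between stiff and compliant cardiac forms.

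Ttn lies on the minus strand of chromosome 2, at chr2:76703980-76982557 of GRCm38, and spans 278578 bases. With 2000 bases added on each side the window measured here is 282578 bases long, and no other gene of the table overlaps it. The window held 188 of the 862255 peaks of the series. Peaks of all libraries that overlapped by at least 1 base were merged, which gave 39 Ttn regions of 152196 in all. The 39 regions all lay inside the gene, and they are numbered R1 to R39 in the order of their coordinates, so that R39 is nearest to the gene start. Exon and intron positions were not used here.

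The promoter is shown first because it carried no peak in any of the 18 libraries. The 240 bases before the gene start, chr2:76982558-76982797 of GRCm38.p6 on the minus strand, are printed from RefSeq in the direction of transcription. Capitals mark, in this order, a MEF2 motif, a pair of CCAAT motifs and a TATAA motif.
Ttn promoter: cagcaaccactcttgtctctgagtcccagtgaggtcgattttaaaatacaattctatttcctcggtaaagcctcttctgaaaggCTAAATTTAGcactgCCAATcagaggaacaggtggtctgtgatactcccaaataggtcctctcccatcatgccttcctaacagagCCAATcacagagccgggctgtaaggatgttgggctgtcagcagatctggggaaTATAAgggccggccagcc
The 300-base promoter window, from 250 bases before to 50 after the transcript start of the promoter table, which lies 10 bases inside the gene, held 8 CG dinucleotides. The median over 32851 promoters was 7, and 54.2% held as few as Ttn or fewer. Over all promoters, 8.93% had a peak in at least 1 library and 2.64% of promoter and library pairs had one, so a promoter without a peak was the common case. Counted from the gene start, the TATAA motif began 18 bases upstream, and 24.9% of promoters hold TATAA on either strand. The CCAAT motifs, searched on both strands, began 141 and 71 bases upstream, and 37.4% of promoters hold CCAAT. The MEF2 motif, named for a family of muscle transcription factors, began 156 bases upstream and occurs in 3.19% of promoters. It did not overlap the other motifs. These matches describe the letters and show no binding.

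The peak nearest to the gene start lay 3939 bases downstream, in R39, and was called in 1 library, sham replicate 3. The nearest region shared by at least 9 libraries was R36, at 30.23 kb. The 2 sides of the window's midpoint were similar in number, with 22 regions and 99 peaks towards the start and 17 regions and 89 peaks towards the end. The longest stretch with no peak in any library ran over 22762 bases, chr2:76834076-76856837, near the middle of the gene.

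**Figure D1:**
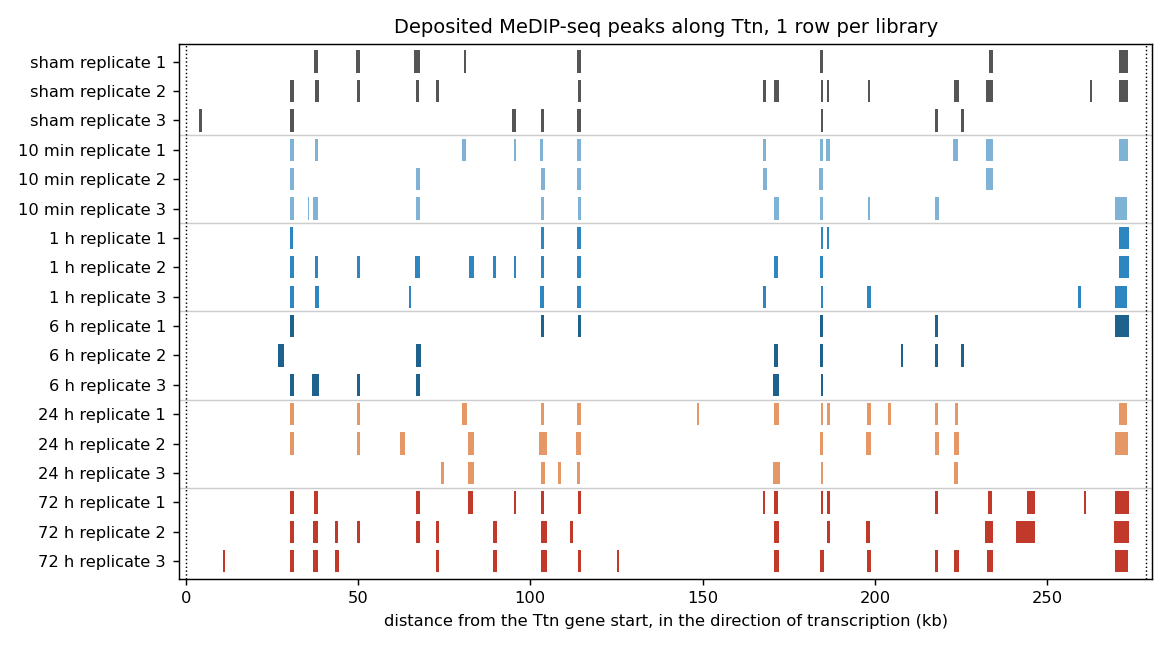
Peaks of each of the 18 libraries along Ttn, 1 row per library, against the distance from the gene start in kb; each bar is 1 peak drawn to its width, colours stand for the groups, and dotted lines mark the ends of the gene. The peak-free stretch of 22762 bases is the open band near the middle, the start of the gene is nearly empty, and the 72 h rows hold 15 or 16 peaks each.

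Most Ttn regions were carried by few libraries. Of the 39, 16 (41.03%) had a peak in 1 library, against 29.20% of all regions, and 4 of those 16 were at 72 h. At least 9 libraries shared 8 of the regions (20.51%, against 25.21% of all). None of the 39 was present in all 18 libraries, against 5.086% of all regions. The most widely shared, R14, had a peak in 17.

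Ttn peaks were slightly weaker than the average peak. The deposited score, the authors' own value for each peak, had a median of 66.57 over the 188 peaks (range 50.08 to 148.0), against 72.11 over all peaks. Of the 188, 72 (38.30%) reached the median of their own list, and 25 (13.30%) scored at least 100, against 21.74% of all peaks. The median score of Ttn peaks within a library averaged 72.1 ± 14.3 (SD, n = 3) in sham and 72.4 ± 6.77 at 72 h, and the groups overlapped. The median peak width was 1010 bases, against 962.0 for all peaks. Peaks wider than 2500 bases made up 14 of the 188 (7.447%), against 2.307% of all peaks, and 13 of these 14 were the peaks of R1.

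The rule of a peak in at least 9 libraries was met by 8 regions, and the 3 highest-scoring regions were among them. R1 (chr2:76708652-76713087) lies near the 3′ end of the gene, where the sequence for the M-band end of the protein is. It had a peak in 13 libraries, all 13 of them wider than 2500 bases: 2 of 3 in sham and in the 10 min and 24 h groups, 1 of 3 in the 6 h group, and all 3 in the 1 h and 72 h groups. Its width was 2786 bases in sham replicate 1, 2748 in sham replicate 2, and 3919, 4253 and 3854 in 72 h replicates 1, 2 and 3. The widest peak of R1 was that of 6 h replicate 1, at 4337 bases, and the 24 h and 10 min peaks reached 3736 and 3570, so width did not set 72 h apart. Its scores, 54.33 to 94.91 over the 13 libraries, were highest in sham replicate 1.

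R14 (chr2:76797417-76798811) was present in every library but 72 h replicate 2. It held the highest Ttn score, 148.0 in 72 h replicate 3, and its median was 120.3. Its sham scores were 135, 109 and 120, and its 72 h scores 111 and 148, so that the groups overlapped. R19 (chr2:76867785-76869150) was present in 15 libraries, in all 3 of every group except 6 h, with 1, and 72 h, with 2. Its scores were 100, 99.4 and 70.0 in sham, 51.8 in the 1 library at 6 h, and 112 and 67.1 at 72 h.

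R22 (chr2:76877678-76879944) was present in 14 libraries: 1 of 3 in sham, 1 at 6 h, and 3 of 3 at 10 min, 1 h, 24 h and 72 h. Its score was 51.8 in the sham library, close to the lowest value in the lists, and 124, 122 and 72.0 at 72 h. R36 (chr2:76951035-76952325) was present in 15 libraries. Its scores were 126 and 57.8 in the 2 sham libraries that had it, and 143, 131 and 78.2 at 72 h, where all 3 libraries did. For R36 the scores of the groups overlapped, and for R22 the single sham peak was below the 3 at 72 h.

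R15 (chr2:76810220-76812067) was present in 10 libraries, 1 of 3 in sham with a score of 70.3 and 3 of 3 at 72 h with 74.0, 82.1 and 83.8. R29 (chr2:76914292-76916177) was present in 9 libraries, in 2 of 3 at sham, 10 min, 6 h and 72 h, 1 at 1 h and 0 at 24 h. R34 (chr2:76943927-76945775) was present in 10, with 2 of 3 in sham, 0 at 24 h and 3 at 72 h. R29 and R34 were the members of this group with no peak in any 24 h library.

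With all peaks kept, no single Ttn region separated a time point from sham, while with equal numbers of peaks R22 and R19 did, as given below. The word gained is used for a region with a peak in 3 of 3 libraries at an MI time and in none of the sham libraries, and lost for the reverse. With all peaks, 0 of the 39 were gained at any of the 5 times and 0 were lost. Over all regions 1.52% were gained and 1.86% lost, and 0 of 39 is near those shares. Peaks at 72 h alone were found in 6 of the 39 regions, and in 8.34% of all regions: R3, R5, R18, R20, R33 and R38, of which R5 and R33 were present in 2 of the 3 libraries and the others in 1. These 6 were named after their values were seen.

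The gene as a whole was covered as follows, with the covered share defined as the percentage of the 282578-base window under peaks. In sham replicates 1, 2 and 3 it was 3.57, 5.89 and 2.63%. At 10 min it was 5.24, 3.17 and 4.66%, and at 1 h it was 2.56, 5.07 and 4.15%. These 3 groups overlapped throughout. At 6 h the covered share was 3.20, 2.68 and 2.61%, and at 24 h it was 5.29, 5.98 and 3.35%. The 6 h values were low and close together, and within the span of sham except replicate 3, which at 2.61% was just below it. At 72 h it was 6.68, 9.35 and 7.33%. All 3 of the 72 h libraries lay above each of the other 15, whose highest was 5.98%.

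Sham averaged 4.03 ± 1.68% and the 72 h group 7.79 ± 1.39% (SD, n = 3 each). Between them, the 10 min and 1 h groups averaged 4.36 ± 1.07% and 3.92 ± 1.27%, and the 6 h and 24 h groups 2.83 ± 0.321% and 4.87 ± 1.36%. In bases, 11394 ± 4747 were under peaks in sham and 22008 ± 3935 at 72 h, a ratio of 1.93. The number of peaks was 8, 15 and 8 in sham and 16, 15 and 16 at 72 h, and it ranged from 6 to 15 in the other 15 libraries. Sham replicate 2 thus equalled 72 h replicate 2 in number of peaks, 15 each, and had fewer bases under them, 16654 against 26429.

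**Figure D2:**
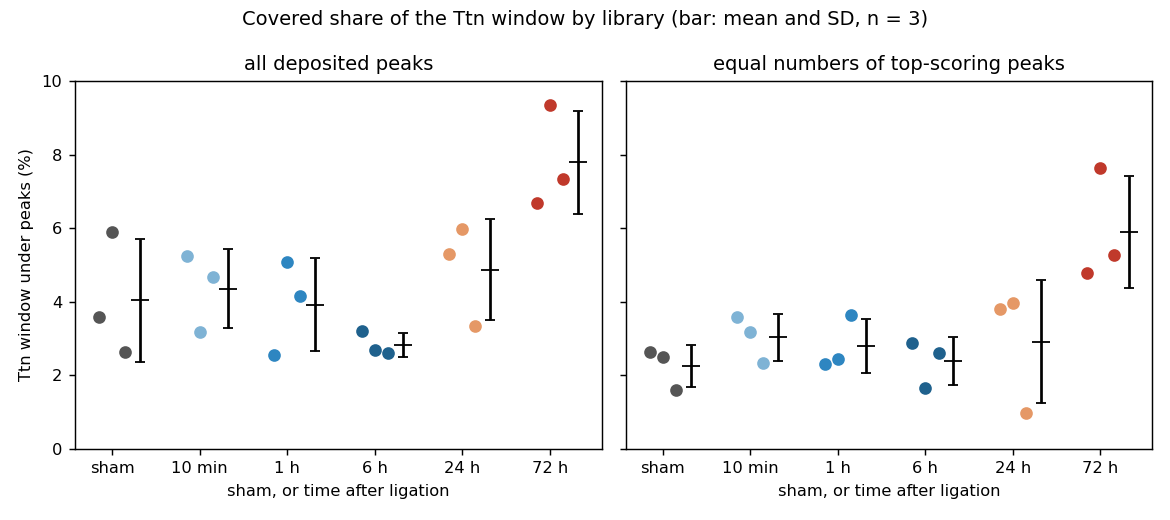
Percentage of the Ttn window under peaks in each library (points) with the mean and SD of each group (bars, n = 3), with all peaks on the left and with the 34255 top-scoring peaks of each library on the right. The 72 h points lie between 6.68 and 9.35% on the left and between 4.78 and 7.64% on the right, above all other points in both panels.

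The 4 earlier times were tested against sham. The 10 min group differed from sham by 0.324 percentage points (2 of 3 libraries above the sham mean; two-sided exact permutation p = 0.900) and -0.109 at 1 h (2 of 3 above; exact permutation p = 0.900). It was -1.20 at 6 h (0 of 3 above; exact permutation p = 0.300) and 0.842 at 24 h (2 of 3 above; exact permutation p = 0.600). Adjusted over the 4 comparisons each p was 0.900, and the smallest that 3 libraries against 3 can give is 0.1. The 5 groups other than 72 h accounted for 0.311 of the variance of the covered share among the 15 libraries (permutation p = 0.397). No difference between these groups was detectable with 3 libraries each.

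The libraries differed in how many peaks were called, from 34255 to 60653, and the 72 h lists were long (56084 ± 6528, against 51287 ± 8068 in sham and 42620 ± 8149 at 6 h; SD, n = 3). Over the 15 libraries other than 72 h, the covered share of Ttn rose with the length of the list (Pearson r = 0.591, permutation p = 0.0178; Spearman rho = 0.561, permutation p = 0.0326; 1 relation). The 2 libraries farthest from the median length were sham replicate 2 and 6 h replicate 3. Without them r was 0.369 (permutation p = 0.215, n = 13) and rho was 0.368 (permutation p = 0.218). The relation was thus weaker, and not detectable, in the 13 libraries left. Without sham replicate 2 alone r was 0.466 (permutation p = 0.0933), and without 6 h replicate 3 alone it was 0.531 (permutation p = 0.0455). With equal numbers of peaks taken from each list r was 0.0424 (permutation p = 0.882). The 72 h lists of 58992 and 60653 peaks were about as long as the longest of the others (60130), and the third had 48608 peaks with 7.33% of Ttn covered. The labels give no batch or date.

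**Figure D3:**
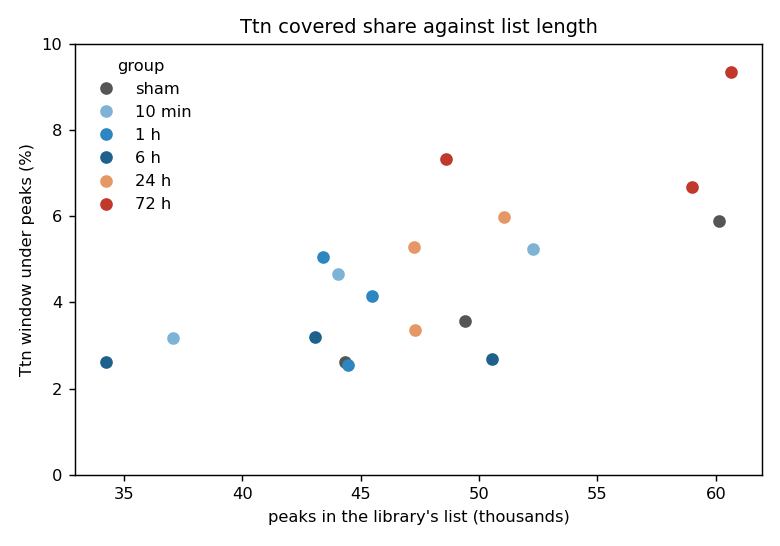
Percentage of the Ttn window under peaks (vertical) against the number of peaks in the library's list on the horizontal axis, 1 point per library, coloured by group. The 72 h points lie above the others at like list lengths, from 6.68 to 9.35%, and sham replicate 2, with 60130 peaks and 5.89%, lies nearest to them on the right.

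List length was therefore held equal by keeping the 34255 top-scoring peaks of each library. The covered share was then 2.64, 2.50 and 1.60% in sham replicates 1, 2 and 3, and 4.78, 7.64 and 5.28% at 72 h. The groups did not overlap, and the ratio of the means was 2.62. The 10 min and 1 h groups averaged 3.03 ± 0.635% and 2.79 ± 0.736%, and the 6 h and 24 h groups 2.39 ± 0.640% and 2.91 ± 1.67% (SD, n = 3). The 72 h libraries again lay above the other 15, whose highest was 3.95%, and 6 h no longer lay below sham on average. Per megabase under peaks anywhere in the genome, Ttn held 204 ± 61.0 bases in sham and 382 ± 35.9 at 72 h, with 348 to 419 at 72 h and 131 to 327 in the other 15 libraries.

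Among high-scoring peaks the groups overlapped. With a score of at least 100, the bases of Ttn under peaks were 1669, 2536 and 648 in sham replicates 1, 2 and 3, and 3845, 4196 and 946 at 72 h. Replicate 3 at 72 h was below 2 of the sham libraries, and 24 h replicate 2 reached 4108. The mean difference between 72 h and sham was then 0.488 percentage points, against 3.76 with all peaks. Most of the bases that set 72 h apart thus lay under peaks that scored below 100, as did most Ttn peaks. Only 13.30% of Ttn peaks scored at least 100. The ratio of the 72 h mean to the sham mean was 1.85 with these peaks and 1.93 with all peaks.

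Regions with more bases at 72 h lay along the length of the gene, and 2 of them, near its 3′ end, contributed the most. Between sham and 72 h the mean number of bases under peaks was higher in 18 of the 39 regions, lower in 11 and equal in 10. Over all regions it was higher in 40.4% and lower in 36.7%. The higher regions added 12819 bases and the lower ones changed by -2205, a net 10614. The 4 largest, R5 with 2630, R1 with 2164, R22 with 1123 and R15 with 918.7, made up 6836 bases (64.41% of the net). R5 (chr2:76736022-76741696) rests on 2 libraries, named here after its values were seen. It had a peak of 2235 bases and a score of 64.8 in 72 h replicate 1 and one of 5656 bases and a score of 73.8 in replicate 2, the widest peak in Ttn, and none elsewhere.

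**Figure D4:**
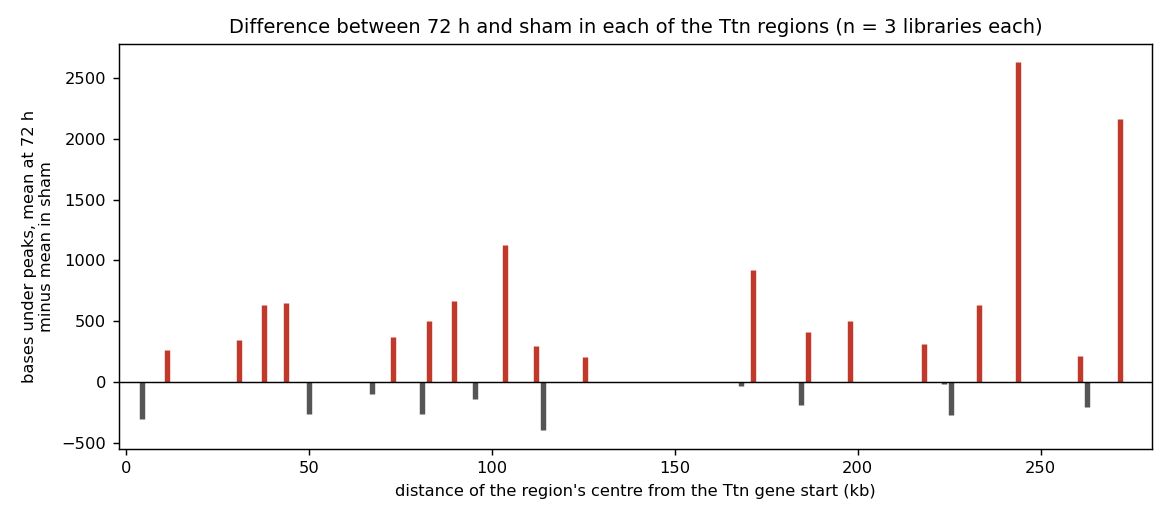
Mean bases under peaks at 72 h minus the mean in sham (vertical, n = 3 libraries each) in each Ttn region, against the distance of the region's centre from the gene start in kb. Red bars above 0 number 18 and grey bars below 0 number 11; the 2 tallest, at the right, are R5 with 2630 bases and R1 with 2164.

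The number of regions with a peak in any library of a group was 21 in sham and 25 at 72 h, with 17 in both the 10 min and the 1 h group, 13 in the 6 h group and 18 in the 24 h group. Regions with a peak in all 3 libraries numbered 2 in sham and 6 at 72 h, with 4, 5, 1 and 4 at the times in between. For both counts the share over all regions is not given here, and the groups differed in list length. They are therefore a description only. Against sham, 18 regions had more libraries with a peak at 72 h, 7 had fewer and 14 had the same number. Over all regions 30.5% had more and 23.9% had fewer, and the 72 h lists were longer than those of sham. A few regions fell just short of the definition of a gained region, at 72 h or at another time, because of 1 library. R22 counted as gained once sham replicate 3 was left out, R15 (72 h) and R8 (24 h) once sham replicate 2 was left out, and R24 and R33 once 72 h replicate 1 was left out. R5 did so without 72 h replicate 3, and R25 (24 h) without 24 h replicate 1. The share of all regions that would count as gained with 1 library left out is not given here, so these cases are a description only.

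With equal numbers of peaks, R22 met the definition of a gained region at 10 min, 24 h and 72 h, since its weak sham peak was no longer kept, and R19 met that of a lost region at 6 h. Without sham replicate 3, R6, R29, R32 and R34 counted as lost at at least 1 time, and without 6 h replicate 1 R19 did. The shares of all regions gained or lost in these settings are not given here. These calls are therefore not read as a result about Ttn. R14 kept 17 libraries with equal numbers of peaks, R36 kept 13 of 15, R1 kept 10 of 13 and R34 kept 5 of 10. R1 and R15 then had a peak in all 3 of the 72 h libraries and in 1 of the sham libraries.

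The values at 72 h chose the gene, so its place among other genes is given as a description only. All 3 of the 72 h libraries lay above all 3 sham libraries in Ttn and in 4.98% of the 16532 genes with a peak, or 6.16% of the 2388 genes of at least 100000 bases. They lay above all other 15 libraries in 0.684% of genes and 1.21% of the long ones. With equal numbers of peaks, the share of genes with 72 h above sham was 2.88%, and the share of long genes with 72 h above all other 15 was 0.293%. The class of long genes was formed for this description, since in a short gene 1 peak can cover much of the window.

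In the long genes the difference of 3.76 percentage points between 72 h and sham ranked 1 of 2388 for Ttn, where the median gene had 0.0420. The long gene with the next largest was Msrb3, an enzyme that repairs oxidised methionine, with 3.38. Over genes of any length Ttn ranked 1346 of 16532, and the median was 0.156. With equal numbers of peaks the difference was 3.65 and ranked 1 of 2388, where the median was -0.0256. With peaks that scored at least 100 it ranked 274 of 2388, and by the number of peak midpoints per 100 kb it ranked 60 of 2388. The first place against sham thus held for covered bases with all peaks and with equal numbers of peaks. It did not hold for the number of peaks or for peaks that scored at least 100. Averaged over the 18 libraries, the covered share of Ttn was 4.63%, more than in 92.5% of the long genes, whose median was 1.85%.

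**Figure D5:**
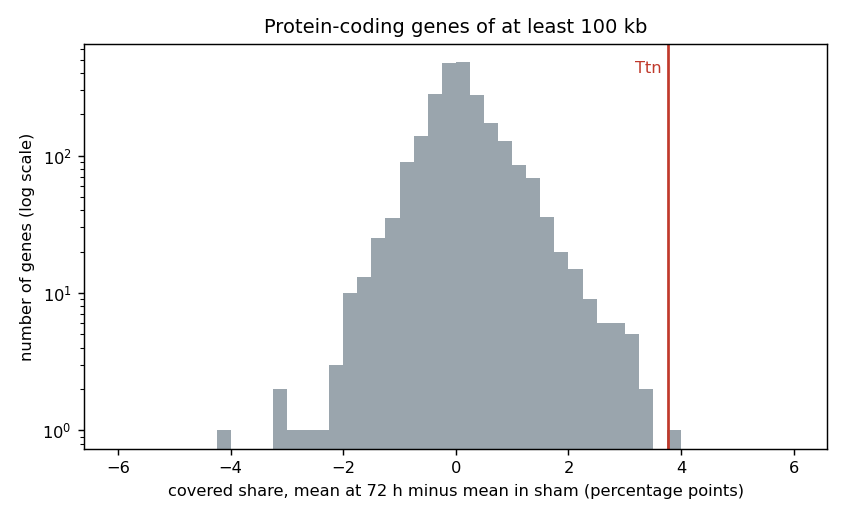
Number of genes (vertical, log scale) by the covered share at 72 h minus that in sham, in percentage points (horizontal), for the 2388 protein-coding genes of at least 100000 bases with a peak. The red line marks Ttn at 3.76; the median gene has 0.0420. The difference at 72 h chose the gene.

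Ttn's neighbours did not separate the groups. Plekha3, a lipid-binding protein of the Golgi, lies 6644 bases beyond the 3′ end of Ttn, and its covered share was 0, 5.06 and 0% in sham and 0, 8.08 and 3.64% at 72 h. Ccdc141, a coiled-coil protein, lies 27344 bases beyond the start of Ttn and is 163868 bases long. Its covered share was 2.30, 1.28 and 1.86% in sham and 1.35, 3.25 and 3.03% at 72 h, and the groups overlapped in both neighbours. No test of the difference between Ttn and these genes was run.

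A list of 24 genes whose proteins bind titin, sit beside it in the sarcomere or process it was set beside Ttn. It was chosen with results of these data known. All 24 were in the gene table, and 22 had a peak in at least 1 library. The mean covered share at 72 h was above that of sham in 17 of the 24, below in 4 and equal in 3. The mean was thus higher in 70.8% of the 24, which include the 2 with no peak, against 54.9% of the 16532 genes with a peak. The median difference was 1.48 percentage points, against 0.156 over those 16532 genes, and with equal numbers of peaks it was 0 for both. In 2 of the 24, Ankrd1 and Rbm20, all 72 h libraries lay above all sham libraries, and with equal numbers of peaks in 0 of the 24. The shares over the genes with a peak were 4.98% and 2.88%. Many of these genes are short, so that a single peak could move their share by several points.

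The partners described here are the 4 with the largest difference between 72 h and sham in either direction, all of which had the higher mean at 72 h, along with Tcap and Rbm20. Of the 4 partners with a lower mean at 72 h, the difference was lowest, -2.25 percentage points, in Ankrd2, an ankyrin-repeat relative of Ankrd1, named after its values were seen, with 6.74, 0 and 0% in sham and no peak at 72 h. Among the Z-disc and structural partners, Tcap, which anchors the Z-disc end of titin, had no peak in any library. Mybpc3, the thick-filament protein that binds titin and myosin, had 2.77, 4.93 and 0% in sham and 8.38, 7.64 and 3.32% at 72 h. Among the proteins that bind titin's signalling sites, Ankrd1, a stress-responsive ankyrin-repeat protein of the spring region, had 0, 5.34 and 0% in sham and 6.41, 6.69 and 14.6% at 72 h. Trim63, a muscle ubiquitin ligase near the M-band, had 2.94, 3.27 and 0% in sham and 3.27, 9.58 and 4.02% at 72 h. Sqstm1, an autophagy adaptor tied to the titin kinase, had 0, 6.39 and 0% in sham and 9.73, 5.84 and 9.60% at 72 h. Sham replicate 2 was the one sham library with a peak in Ankrd1 and Sqstm1, as it was the sham library with the most Ttn peaks and the longest list.

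Rbm20, the splicing regulator of titin, had a covered share of 1.55, 3.47 and 3.52% in sham replicates 1, 2 and 3 and 3.64, 4.76 and 3.54% at 72 h. The groups did not overlap, though the highest sham value and the lowest 72 h value differed by little. The 10 min and 1 h groups averaged 1.58% and 1.14% in Rbm20, and the 6 h and 24 h groups 1.86% and 2.85%. Of the 18 partner genes with a promoter in the sequence table, 3 (16.7%, against 9.96% of all genes in that table) had a promoter peak in any library: Actn2 in 2, Capn3 in 2 and Ankrd23 in 1. Of the same 18 genes, 8 had a promoter with TATAA (44.4%, against 28.0% of all genes), 7 one with CCAAT (38.9%, against 41.1%) and 3 one with the MEF2 motif (16.7%, against 3.70%).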

How the data were processed

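The data were the peak lists of 18 MeDIP-seq libraries, 1 for each library, with 5 columns: chromosome, start, end, name and score. The submitters' processing notes name Bowtie2, MACS2 and the mouse build mm10, whose coordinates are those of GRCm38; their versions and options, and whether an input library was used, are not given in the sources used here. The score is the deposited value of the authors' peak caller. Its scale is not stated, the lowest value was 50.0, and it was used to describe, rank and filter peaks. The lists hold no read counts, so depth is unknown and no counting interval or floor is given.

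Positions are printed counted from 1. Genes, symbols and strands came from the RefSeq table of GRCm38.p6. For each gene, extended by 2000 bases on each side, the percentage of bases under peaks was computed in each library, with all peaks and with the 34255 top-scoring peaks, the length of the shortest list. Groups were compared over libraries with two-sided exact permutation tests, or 100000 permutations for the variance share and the correlations, with Benjamini-Hochberg adjustment. P-values of a time against sham rest on the spread between 3 mice per group. Those of the variance share and the correlations come from permuting the 15 libraries other than 72 h, or those left after leaving some out. The computations were tested on simulated data. Python 3.11.15, numpy 2.4.6, pandas 2.3.3 and scipy 1.17.1 were used.

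Alternatives were a score of at least 100, no flank, a flank of 10000 bases, bases per megabase under peaks, peak midpoints, leaving out each library, and the replicate number as a block. The gene, the partner list and the named items were chosen with earlier results of these data known. Regions are named if they had a peak in at least 9 libraries, were gained or lost, or held one of the 3 highest scores. Partners are named if among the 4 largest differences between 72 h and sham, along with Rbm20 and Tcap; 1 more gene of the rule is not reported here. The 5 genes most like Ttn are named by Pearson correlation. The width limit of 2500 bases was chosen after seeing the data. Sequences and CG content of the peaks were not analysed here.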

Additional observations from a re-analysis of the deposited data

Results flagged for a closer look

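The covered share of Ttn lay on opposite sides of the sham mean at 6 h and at 72 h. All 3 of the 6 h libraries (3.20, 2.68 and 2.61%) lay below the sham mean of 4.03%, and all 3 of the 72 h libraries (6.68, 9.35 and 7.33%) lay above it. The means of the 2 times differed by 4.96 percentage points. The difference was not tested, both comparisons share the sham libraries, and the 72 h values chose the gene. The 6 h lists were also short, 42620 peaks on average, against 56084 in the 72 h group, and the part of list length in this difference was not tested beyond the values with lists of equal length. In those, the 6 h mean was 2.39%, against 2.25% in sham.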

How the results depend on the processing

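The difference in covered share between 72 h and sham kept its sign under every alternative run. With all peaks, all 3 of the 72 h libraries lay above all 3 sham libraries, so leaving out 1 library could not change that sign. This contrast chose the gene, so the kept sign is a description and no support. The difference moved beyond the spread of the libraries only with a score of at least 100, to 0.488 percentage points (0.726 against the other 15 libraries). The sham mean was itself lower in that setting, 0.572% against 4.03% with all peaks. The tested differences of 3 libraries against 3 cannot pass the threshold in any setting, so their signs are given. That at 10 min changed sign with a score of at least 100 (-0.492 points) and by peak midpoints (-0.118 per 100 kb), and ranged from -0.378 to 1.25 points when 1 library was left out. That at 1 h changed sign with equal numbers of peaks (0.539 points) and per megabase under peaks (33.2 bases), and ranged from -0.811 to 0.821 when 1 library was left out. That at 6 h changed sign with equal numbers of peaks (0.138 points). The correlation with list length was 0.0424 with equal numbers, 0.297 per megabase, and 0.466 to 0.689 when 1 library was left out. The partner median was 0 with equal numbers, 0 with a score of at least 100, 1.15 with a flank of 10000 bases, 8.72 bases per megabase, and 0.669 to 1.48 when 1 library was left out. Gained regions numbered 1 and lost regions 1 with equal numbers, and 0 to 2 and 0 to 4 when 1 library was left out. No share over all regions stands beside these counts. The causes were not tested.

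With the replicate block the variance share was 0.358 (permutation p = 0.426), against 0.311 (permutation p = 0.397) without it. Whether the numbers pair the libraries was checked with a pairwise correlation, and no pairing was seen. The pairwise correlation used for this check averaged 0.00358 between same-numbered libraries of different groups (-0.0612 to 0.0734, 45 pairs). Between the 90 pairs with different numbers it averaged -0.00178 (-0.0788 to 0.0713), and the ranges overlapped. This check cannot show that pairing is absent. The correlation used is not that of plain presence, since 25.21% of all regions had a peak in at least 9 libraries. It does not measure how many peaks the libraries share.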

Other observations

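Among 4321 protein-coding genes of at least 50000 bases with a peak in at least 9 libraries, the covered share that followed that of Ttn most closely over the 18 libraries was that of Tacc2, a coiled-coil protein of the microtubule spindle (Pearson r = 0.887). Next came Cpt1a, the carnitine transferase that brings fatty acids into mitochondria, with 0.854, Inpp5a, an inositol phosphatase, with 0.835, Foxn3, a forkhead repressor, with 0.831, and Dcdc2c, a doublecortin-domain protein, with 0.829. The median over the genes compared was 0.204. These genes were picked as the highest of 4321 and share the libraries and their list lengths with Ttn, so the values are a description with no p. With equal numbers of peaks r was 0.675 for Tacc2, 0.442 for Inpp5a, 0.382 for Dcdc2c, 0.292 for Foxn3 and 0.0829 for Cpt1a. The selection used the 72 h libraries, so a higher level at 72 h in these genes would follow from it and is not read as a result.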
